A study of Mus musculus with 22 samples.

Results

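Of 33193 CTCF peaks listed in undifferentiated G1ER cells, 2611 overlapped no CTCF peak after 24 h of differentiation, and these 2611 peaks are described here. They were chosen by presence in the 0 h peak list and absence from the 24 h list, where an overlap of 1 bp was enough to count as shared. The remaining 30582 peaks of the 0 h list were shared with 24 h, and 11059 of the 41473 peaks of the 24 h list were found only there. The share of 7.87% of the 0 h list is therefore the rule itself and not a result.

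G1ER cells (G1E-ER4) are mouse erythroid progenitors without a functional Gata1 gene. They were subcloned from the G1E line and make, at all times, a GATA1-ER fusion protein whose estrogen receptor part keeps it inactive until β-estradiol is added, which starts erythroid differentiation. Every list came from these cells, so all of them lack endogenous GATA1 and carry GATA1-ER, and a single clonal line limits what they represent. The 0 h lists came from undifferentiated cells and the lists at 2, 6, 12 and 24 h from cells given β-estradiol for that long. CTCF had 1 list at 0 h and 1 at 24 h, whereas H3K27ac and H3K4me3 had 2 lists at each of the 5 time points. The study describes the pairs of histone libraries as independent experiments without saying whether the cultures were separate, and p-values measure the spread between these lists of a single line.

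CTCF is a zinc-finger protein that binds a long, well-conserved DNA motif. Together with the cohesin ring it holds the bases of chromatin loops and marks boundaries between domains, and most of its sites are bound in many cell types. H3K4me3 is a histone mark of gene starts and H3K27ac marks active promoters and enhancers. In rodents, many CTCF sites are known to lie in short interspersed repeats of the B2 family, which carried the motif to new places in the genome.

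The peaks only at 0 h are shown here by the DNA at their best match to the CTCF core consensus, a 12-letter pattern searched on both strands in the central 300 bp of each peak. Each line gives 60 bases of RefSeq GRCm38 (mm10), read 5′ to 3′ on the strand of the match, with the 12 matched letters in capitals. The first set holds exact matches at peaks of high score or near a captured promoter, the next set holds the letters that recur most often among the peaks, and the last set holds peaks near progenitor genes or at gene starts whose best match had 2 or 3 mismatches.
AU018091, chr7:3106677-3106736, minus strand: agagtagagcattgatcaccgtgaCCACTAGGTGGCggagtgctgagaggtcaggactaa
Emb, chr13:117165230-117165289, plus strand: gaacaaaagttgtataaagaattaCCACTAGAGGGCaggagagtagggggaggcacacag
Robo1, chr16:72605235-72605294, minus strand: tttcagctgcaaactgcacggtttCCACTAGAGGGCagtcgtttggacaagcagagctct
Klf10, chr15:38337961-38338020, minus strand: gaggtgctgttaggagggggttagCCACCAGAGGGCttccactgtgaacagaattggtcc
Tbc1d7, chr13:43156570-43156629, plus strand: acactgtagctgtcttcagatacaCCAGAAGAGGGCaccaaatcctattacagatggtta
Ppp1r3g, chr13:36011186-36011245, plus strand: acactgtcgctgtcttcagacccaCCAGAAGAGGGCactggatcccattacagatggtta
Mafk, chr5:139788498-139788557, plus strand: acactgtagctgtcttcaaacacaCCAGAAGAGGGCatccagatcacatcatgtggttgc
Spi1, chr2:91143314-91143373, plus strand: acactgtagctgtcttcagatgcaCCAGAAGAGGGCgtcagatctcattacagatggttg
Tfrc, chr16:32622033-32622092, minus strand: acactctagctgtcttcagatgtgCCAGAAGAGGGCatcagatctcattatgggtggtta
Gata2, chr6:88226805-88226864, plus strand: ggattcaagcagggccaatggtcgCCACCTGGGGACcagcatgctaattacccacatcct
Kit, chr5:75538034-75538093, plus strand: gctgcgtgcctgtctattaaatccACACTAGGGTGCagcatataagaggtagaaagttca
Myc, chr15:61985378-61985437, minus strand: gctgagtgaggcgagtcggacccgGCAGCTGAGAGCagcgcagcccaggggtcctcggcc
Eapp, chr12:54695486-54695545, plus strand: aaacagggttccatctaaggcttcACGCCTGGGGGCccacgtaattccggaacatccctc

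A match with at most 1 mismatch was found in 1468 of the 2611 peaks, or 56.2% (95% Wilson interval 54.3 to 58.1%). Windows of the same length placed 2 kb to either side of the peaks held one in 3.33% of cases. The share was 63.3% in the shared peaks and 59.7% in the peaks only at 24 h. Exact matches were rarer. They were present in 193 peaks only at 0 h, or 7.39%, against 17.6% of shared peaks and 6.24% of peaks only at 24 h. Wilson intervals here and below cover counting error only, and neighbouring sites and copies of a repeat are not independent.

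A single stretch of letters accounted for most matches. CCAGAAGAGGGC, which differs from the consensus at 1 letter, was the best match in 772 peaks only at 0 h. These were 29.6% of the peaks (27.8 to 31.3%) and 52.6% of all peaks with a match. The next most frequent stretch, CCAGAAGGGGGC, was found in 35. The stretch was present in 16.5% of shared peaks and in 35.5% of peaks only at 24 h, and it was singled out after the sequences were seen. All 772 copies lay in soft-masked sequence, which is how the reference genome writes repeats. The DNA around the copies was alike as well. The commonest letter at each position of the 772 windows gave the following line, in which the 12 shared letters are in capitals.
Commonest letters around CCAGAAGAGGGC: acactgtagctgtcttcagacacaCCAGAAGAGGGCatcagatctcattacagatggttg

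On average 72.9% of the flanking letters of a window were the same as in this line. The commonest letter was shared by at least 50% of windows at all 24 positions before the match and at 23 of the 24 after it. In the 696 peaks with another match, 30.7% of flanking letters were the same as in the line. The windows near Tbc1d7, Ppp1r3g, Mafk, Spi1 and Tfrc printed above belong to this group. No repeat annotation was used, so the family of these repeats was not determined here.

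The score printed in the lists was taken to be the peak caller's, which rises as the p-value of a peak falls, although the settings used for CTCF are not stated. It bears on which peaks were listed, so it is given as a description. Scores of the peaks only at 0 h ran from 50.02 to 251.92 with a median of 59.99, against 129.35 for the shared peaks. Only 20 of the 2611 ranked above the median of the 0 h list, and 82 reached a score of 100. The share of 0 h peaks without a 24 h peak was 34.2% for scores from 50 to 60, 21.8% from 60 to 70, 11.9% from 70 to 80, 6.10% from 80 to 100 and 0.416% at 100 or more. They were also narrower, with a median width of 584 bp against 824 bp.

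**Figure D1:**
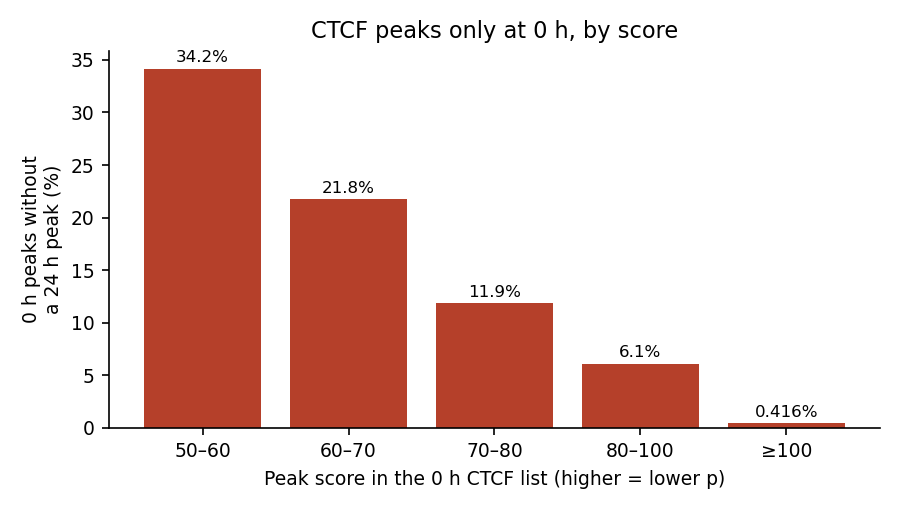
Bars give the percentage of the CTCF peaks listed at 0 h that overlap no 24 h peak (vertical axis), by interval of the peak score in the 0 h list (horizontal axis). The share falls from 34.2% in the lowest interval to 0.416% at scores of 100 or more.

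The motif was also compared with shared peaks of the same score interval. CCAGAAGAGGGC was present in 31.6% of the peaks only at 0 h and in 32.0% of the shared peaks with scores from 50 to 60, and in 29.3% of both from 60 to 70. From 70 to 80 the shares were 29.5% and 24.4%, and from 80 to 100 they were 24.5% and 21.6%. At scores of 100 or more it was present in 14.6% (8.57 to 23.9%) and 11.1% (10.7 to 11.5%), respectively. The Wilson intervals of the 2 classes overlapped in all 5 score intervals. The interval of 100 or more has no upper bound and is not matched for score. Scores in it reached 251.92 for the peaks only at 0 h and 3100 for the shared peaks. Any match with at most 1 mismatch was less frequent in the peaks only at 0 h in all 5 score intervals. In the lowest the shares were 54.9% (52.2 to 57.6%) against 62.4% (60.5 to 64.2%). They were 56.9% and 62.5% from 60 to 70, and 59.7% and 60.3% from 70 to 80. From 80 to 100 they were 55.9% and 61.9%, and at 100 or more 59.8% and 64.1%. Only in the lowest were the Wilson intervals of the classes apart. Exact matches were also less frequent in the peaks only at 0 h in all 5. They were present in 5.90% of the peaks only at 0 h and 8.98% of the shared peaks with scores from 50 to 60. From 80 to 100 the shares were 8.16% and 13.1%, and at 100 or more 17.1% and 21.3%.

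**Figure D2:**
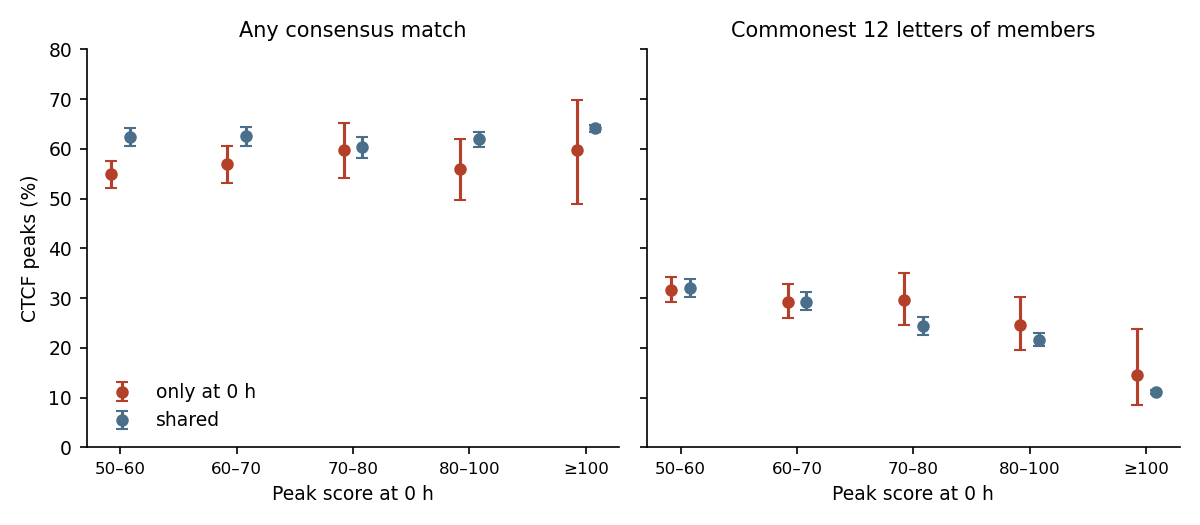
Points give the percentage of CTCF peaks (vertical axis) with any match to the CTCF core consensus of at most 1 mismatch (left) or with CCAGAAGAGGGC (right), by score interval at 0 h (horizontal axis), for peaks only at 0 h (red) and shared peaks (blue), and bars are 95% Wilson intervals. In the right panel both classes start near 32% at the lowest scores, and the intervals overlap throughout.

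Only the central 300 bp were searched, so no match could lie farther out, and within them matches were densest near the peak centre. Of the peaks only at 0 h, 5.86% had a match centred from -10 to 10 bp and 2.14% from -130 to -110 bp. Of the 1468 peaks with a match, 726 (49.5%) had its centre within 50 bp of the peak centre, against 47.9% in shared peaks, and 49.7% of matches were on the plus strand. The 7-letter core of the motif, AGGGGGC or AGGTGGC or AGAGGGC or AGATGGC on either strand, overlaps the 12-letter pattern and was present in 66.1% of the peaks only at 0 h, 67.9% of the shared peaks and 18.9% of the flanking windows. The GATA motif, AGATAA or AGATAG or TGATAA or TGATAG on either strand, was present in 39.9% (38.0 to 41.8%) of the central windows and in 43.2% (41.9 to 44.6%) of the flanking windows. In the shared peaks it was present in 37.6%.

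**Figure D3:**
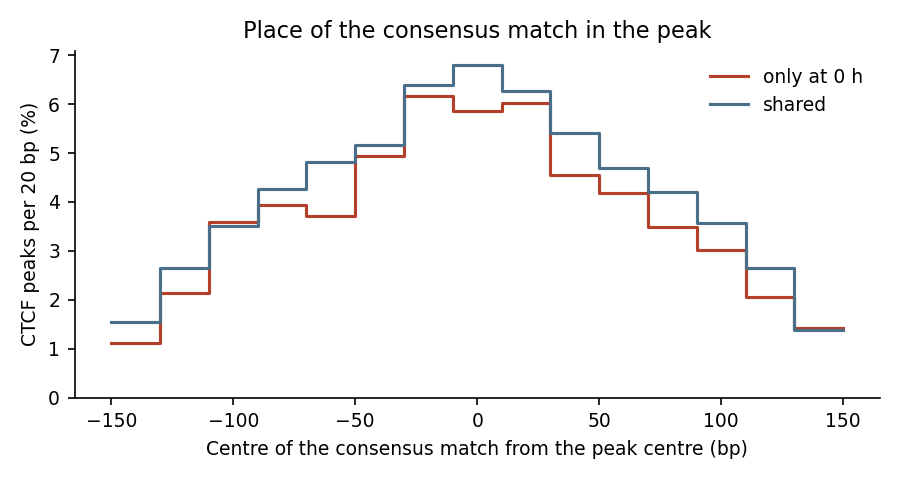
Lines give the percentage of CTCF peaks per 20 bp (vertical axis) whose consensus match of at most 1 mismatch is centred at a given distance in bp from the peak centre (horizontal axis), for peaks only at 0 h (red) and shared peaks (blue). Both lines are highest near the centre, where 49.5% of matches in the peaks only at 0 h lie within 50 bp.

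The peaks only at 0 h lay mostly away from gene starts. Peak centres fell in introns of protein-coding genes in 1236 cases (47.3%) and between genes in 1042 (39.9%), whereas 173 were in noncoding genes, 62 in UTRs and 54 in coding exons (GENCODE M21). A protein-coding transcription start site (TSS, 1 per gene) lay within 1 kb of 144 peaks, or 5.52% (4.70 to 6.46%), against 9.41% (9.09 to 9.74%) of shared peaks. A TSS lay inside 47 (1.80%), against 4.85%. At the other extreme 515 (19.7%) were over 100 kb from any TSS, against 12.0% of shared peaks. The share of 0 h peaks that were only at 0 h ranged from 6.67% on chromosome 16 to 9.90% on chromosome X, apart from chromosome Y with 2 of 20.

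Most were single sites among retained ones. The nearest shared peak was at a median of 16677 bp, and a 24 h peak of any kind lay within 1 kb of 161 (6.17%) and within 5 kb of 701 (26.8%). Only 33 pairs of neighbouring peaks only at 0 h were within 10 kb of each other. The members closest to a 24 h peak were 22 bp from it near Zfp236, 25 bp near Patl1, 30 bp near Max, 42 bp near Pcbp2 and 45 bp near Cstb. Just outside the rule were shared peaks with overlaps of 12 bp near Tfap2e, 15 bp near Ppargc1b, 35 bp near Neb, 66 bp near Arhgef10l and 68 bp near Pick1.

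The peaks with the highest scores were found in varied surroundings. The highest, 251.92, was on chrY:90803260-90803996 in an intron of Gm47283, 744 bp from a 24 h peak. The next, 183.22 at chr6:47752574-47754569, was intergenic and overlapped both histone marks in all 20 lists, and a neighbour at chr6:47743591-47745774 scored 126.42. The peak at chr19:5800285-5802794 scored 156.75 and lay in Malat1, an abundant nuclear noncoding RNA. It overlapped H3K4me3 in 10 of 10 lists and H3K27ac in none, the closest H3K27ac peak of any list being 12351 bp away. Near AU018091, near Emb and in an intron of Robo1, an axon guidance receptor, the peaks scored 127.77, 126.60 and 120.83. These are the first 3 sites printed above, and none overlapped a histone peak in any list.

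Among peaks with a TSS inside, the highest scores belonged to Eapp, a regulator of E2F activity, with 121.13, and to Gm10037 with 101.97. The peak at Eapp was 341 bp from a 24 h peak and overlapped both marks in all 20 lists. B3gntl1, Jmjd4, Mtx3, Thap1 and Tarsl2 likewise overlapped both marks throughout. Sp4, a zinc-finger transcription factor, and Nbeal2, which is needed for platelet α-granules, overlapped H3K4me3 in 10 lists and H3K27ac in none. Phf10, a subunit of a chromatin remodelling complex, overlapped H3K4me3 in 10 lists and H3K27ac in 5. The longest H3K27ac peak at Phf10 was 8506 bp, and the longest H3K4me3 peak was 8233 bp at Sp4 and 3191 bp at Nbeal2. Whether broader H3K27ac domains would have been listed at these sites was not tested.

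In total, 3647 of 21866 protein-coding genes (16.7%) had a peak only at 0 h within 50 kb of the TSS. Of 22 genes activated during erythroid differentiation, 6 did (27.3%), as did 6 of 20 progenitor or mast cell genes (30.0%). Of 41 matched genes whose promoters the study captured, 11 did (26.8%), and since these genes were chosen for their change in this cell line they are not an independent set. Only 1 of 20 cohesin and loop factors (5.00%) and 4 of 31 matched imprinted genes (12.9%) had one. A shared peak lay within 50 kb of nearly all genes of the first 4 lists, with 22 of 22, 19 of 20, 39 of 41 and 19 of 20, respectively, and of 22 of the 31 imprinted genes (71.0%). Over all 21866 protein-coding genes the share was 77.5%.

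At the erythroid genes the peaks only at 0 h lay over 1 kb from the TSS and carried no histone mark. Klf1, a master regulator of red cell genes, had 2, at 11220 bp upstream in an intron of Gcdh (score 84.33) and 45087 bp downstream in an intron of Rtbdn (55.64). Tfrc, the transferrin receptor, had 1 in its own intron 12737 bp downstream of the TSS (85.89), at the repeat-embedded site printed above. Slc25a37, the mitochondrial iron importer mitoferrin-1, had 1 at 48763 bp downstream (90.09). Zfpm1, which encodes the GATA1 cofactor FOG1, had 1 in an intron (68.41), Trim10 had 1 at 30879 bp downstream (55.45), and Mafk, a partner of NF-E2, had 1 at 2799 bp upstream (58.63) with a 24 h peak 646 bp from it. None of these 7 peaks overlapped an H3K27ac or H3K4me3 peak at any time.

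At the progenitor genes some did. The peak near Myc, a driver of cell growth, was 175 bp upstream of the TSS used here in an annotated UTR (51.77), and it overlapped both marks in all 20 lists. The peak 36488 bp upstream of Kit, the stem cell factor receptor, scored 51.09 and overlapped H3K27ac in 10 of 10 lists and H3K4me3 in none. The peak 32675 bp downstream of Gata2, in an intron of Dnajb8, scored 63.59 and overlapped H3K27ac in 7 lists. Of its 599 bp, H3K27ac covered 0 and 142 bp in the 2 lists at 0 h. It covered all 599 bp in each list at 2, 6 and 12 h, and 0 bp in both at 24 h. Those near Myb (17723 bp upstream, 51.17), Lyl1 (1282 bp upstream, 59.66) and Spi1 (47032 bp downstream, 58.08) overlapped neither mark. All 3 encode transcription factors of blood progenitors.

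Among the captured genes not yet named, the peak 135 bp upstream of Etv5, an ETS transcription factor, scored 68.82 and overlapped both marks in all 20 lists, and so did the peak 37121 bp upstream of Tmem44 (76.35). The peak 34629 bp downstream of Btn1a1 (53.11) overlapped H3K4me3 in 10 lists and H3K27ac in 8. Those near Klf10 (2 peaks), Fam214b and Lpin2 overlapped neither mark. Rad21, the cleavable subunit of cohesin, held a peak in its own intron (52.89), and a peak scoring 64.35 in an intron of Slc22a18 lay near both Cdkn1c and Phlda2, imprinted growth inhibitors. The peak in an intron of Trappc9 (56.00) overlapped neither mark, and that in an intron of Inpp5f (68.82) overlapped H3K27ac in 1 list.

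Most of the peaks only at 0 h carried no active mark. In all, 2203 of 2611 (84.4%) overlapped neither an H3K27ac nor an H3K4me3 peak in any of the 20 lists, against 78.2% of shared peaks. The shares were closer among peaks of like score below 100. H3K27ac was present in both lists at 0 h at 9.49% of the peaks only at 0 h and 11.4% of the shared peaks with scores from 50 to 60, at 10% and 10.8% from 60 to 70, at 10.4% and 12.0% from 70 to 80, and at 11.8% and 11.6% from 80 to 100. For H3K4me3 the shares were 7.50% and 10.2% in the lowest of these intervals and 8.57% and 10.3% in the highest. At scores of 100 or more, with 82 peaks only at 0 h, they were 7.32% and 15.1% for H3K27ac and 12.2% and 14.2% for H3K4me3. Both marks were found in all 20 lists at 136 peaks, and H3K27ac in 10 lists with no H3K4me3 at 37. The motif went with the absence of marks. A match with at most 1 mismatch was found in 61.1% (59.0 to 63.1%) of the 2203 unmarked peaks, in 41.3% (33.8 to 49.2%) of the 155 with H3K27ac alone and in 23.3% (18.5 to 28.9%) of the 253 with H3K4me3 in at least 1 list. Of these 253, 111 had a TSS within 1 kb (43.9%), as did 33 of the 2203 unmarked peaks. GATA motifs were present in 74 of the 155 peaks with H3K27ac alone (47.7%), in 33.6% of those with H3K4me3 and in 40.1% of the unmarked.

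In the 2 lists at 0 h, 288 and 281 of the peaks only at 0 h overlapped H3K27ac. The lists of 2 h gave 293 and 289, those of 6 h gave 289 and 291, those of 12 h gave 288 and 290, and those of 24 h gave 281 and 263. The second list at 24 h was the lowest, and the first at 24 h equalled the second at 0 h. The mean share was 10.9% ± 0.190 (SD, n = 2 lists) at 0 h and 10.4% ± 0.487 at 24 h. For H3K4me3, the lists of 0 h gave 218 and 227 peaks, those of 2 h gave 218 and 203, those of 6 h gave 209 and 198, those of 12 h gave 208 in each, and those of 24 h gave 204 and 215. Both H3K4me3 values at 24 h were below both at 0 h. The same held for the shared peaks, with 13.2% and 13.6% at 0 h and 12.6% and 12.8% at 24 h. It also held for whole H3K4me3 lists, with 14014 and 14452 peaks at 0 h and 12925 and 13071 at 24 h. Fewer cells with a mark and less of it per cell cannot be told apart in these bulk samples.

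Neither share passed the test for a trend with time. The Spearman correlation of the H3K27ac share with hours was rho = -0.27 over the 10 lists (exact permutation test, two-sided, p = 0.448, adjusted over 4 trends 0.448) with Pearson r = -0.66 (exact permutation p = 0.0367, adjusted 0.0734). Without the 2 lists at 24 h, Pearson r was 0.29, so the sign of r rests on them. For H3K4me3, rho was -0.46 (exact permutation p = 0.187, adjusted 0.281) and r was -0.31 (exact permutation p = 0.385, adjusted 0.385), or -0.53 without the lists at 24 h. An exact permutation test of 2 lists against 2 cannot go below p = 0.33, so the trends were tested over all time points.

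The gap to the shared peaks did not pass the correction for a trend either. It was taken over all scores, and at matched scores below 100 the shares given above lay closer together. At 100 or more those of H3K27ac lay farther apart. The H3K27ac share of peaks only at 0 h minus that of shared peaks was -4.24 percentage points at 0 h and -4.65 at 24 h, with rho = -0.71 (exact permutation p = 0.0275, adjusted 0.110) and r = -0.70 (exact permutation p = 0.0130, adjusted 0.0520), and r = -0.42 without the lists at 24 h. Leaving out the first list at 0 h gave rho = -0.86 with an adjusted p of 0.0166 (exact permutation). The H3K4me3 difference was -4.86 points at 0 h and -4.66 at 24 h, with rho = 0.44 (exact permutation p = 0.211, adjusted 0.281) and r = 0.51 (exact permutation p = 0.134, adjusted 0.179), and r = 0.20 without the lists at 24 h.

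**Figure D4:**
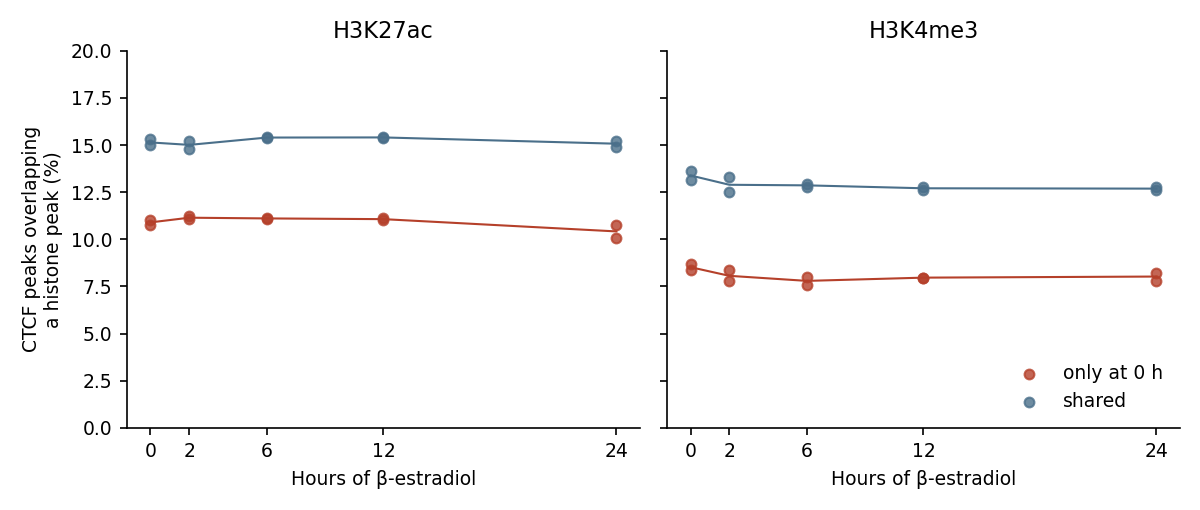
Points give the percentage of CTCF peaks that overlap an H3K27ac peak (left) or an H3K4me3 peak (right) in each list (vertical axis), by hours of β-estradiol (horizontal axis), for peaks only at 0 h (red) and shared peaks (blue), with lines through the means of 2 lists. Peaks only at 0 h sit below the shared peaks in every list, and for H3K27ac their means are 10.9% at 0 h and 10.4% at 24 h.

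Individual sites differed in their lists between 0 and 24 h. H3K27ac was present in both lists at 0 h and absent from both at 24 h at 23 peaks only at 0 h (0.881%), where 0.681% of all 0 h CTCF peaks were, and the reverse held at 11 (0.421%), where the background was 0.597%. H3K4me3 was lost in this sense at 6 (0.230%, background 0.413%) and gained at 3 (0.115%, background 0.102%). In each case the Wilson interval of the members held the background value. Of the 23 with H3K27ac lost, 3 had a TSS within 1 kb and 11 had a consensus match.

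Among the members with H3K27ac lost were an intron of Sgpp2, a sphingosine phosphate phosphatase, where the peak was covered by 747 and 681 bp at 0 h and 0 bp in the second list at 12 h and both at 24 h, and an intron of Prkcd, a protein kinase C. The CTCF peak 10512 bp from the TSS of Cbfa2t3, which encodes the corepressor ETO2, was covered over 777 bp in 7 lists and over 0 bp in the second list at 12 h and both at 24 h. Those with H3K27ac gained included an intron of Zbtb16, a zinc-finger regulator of progenitors, which was covered over 541 bp in all lists from 2 h on and over 0 bp at 0 h. Bcor, a transcriptional corepressor, and Tsc22d4 were among those with H3K4me3 lost, and Pcbp1 and Lif among those gained. The longest histone peak in any list was 9200 bp. Of the 23 and 11 sites with H3K27ac lost or gained, 7 and 4 had touched an H3K27ac peak of at least 6000 bp in some list, a length reached by 4.36% of all H3K27ac peaks. The Cbfa2t3 site, with 7117 bp, and the Zbtb16 site, with 6689 bp, were among them. Whether broader domains would have been listed was not tested.

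The length covered by histone peaks was then tested region by region. For each mark, peaks of the 10 lists were merged into regions, and log2(covered bp + 200) at 24 h was compared with 0 h by limma, over every region in which 2 or more lists had a peak. Of 354 H3K27ac regions at a peak only at 0 h, 23 (6.50%) fell by 24 h, where 3.02% of all 21011 regions did, and 11 (3.11%) rose, where 3.3% did. In either direction, 34 of the 354 were called, against 251 of 5303 regions that held shared CTCF peaks alone. The split depended on single lists, with 16 falls and 15 rises without the first list at 0 h, and 21 falls and 6 rises without the first at 24 h. With histone peaks of at least median score, 7 fell and 4 rose among 222 regions, where 405 of all 10273 were called. Over all 354, the median log2 difference was -0.0010, against 0.0067 for all regions. Of the 23 that fell, 11 had no peak in either list at 24 h, 10 lay at a CTCF peak with a consensus match and 2 also held a shared CTCF peak.

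The region with the lowest adjusted p among those that fell lay near Rnps1, a splicing factor (chr17:24411598-24419898), at a CTCF peak in the noncoding transcript D330041H03Rik, and it also held a shared CTCF peak. Coverage was 6613 and 6985 bp in the lists of 0 h, 6929 and 6947 bp in those of 12 h, and 0 bp in both of 24 h (limma, adjusted p = 1.27e-07). At the start of Pigq, an enzyme of GPI anchor synthesis, coverage was 4759 and 5890 bp at 0 h and 0 bp in both at 24 h (adjusted p = 0.000194), while the H3K4me3 region there rose. Both regions exceeded 6000 bp in at least 1 list.

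Shorter regions were lost too. The region at the peak downstream of Gata2, chr6:88225473-88228084, had a coverage of 1000 and 862 bp in the lists of 0 h, 1751 and 1450 bp in those of 2 h, 1625 and 2329 bp in those of 12 h, and 0 bp in both of 24 h (limma, adjusted p = 0.00282). Gata2 is expressed in progenitors and is silenced when GATA1 becomes active. At Ech1, an enzyme of fatty acid oxidation, coverage was 4481 and 2363 bp at 0 h and 0 bp from 6 h on (adjusted p = 0.00123). At Ier3ip1 it was 1956 and 2212 bp at 0 h and 0 bp at 24 h (adjusted p = 0.000286).

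Other regions that fell became narrower and kept a peak at 24 h. At Sgpp2, coverage went from 4118 and 3546 bp at 0 h to 1652 and 1656 bp at 24 h, a log2 difference of -1.12 ± 0.111 (SE, limma, adjusted p = 0.00197). In an intron of Lif, a cytokine, it went from 2654 and 2265 bp to 1219 and 1045 bp, and at Nfkbiz, an inflammatory regulator of NF-κB, from 4180 and 4153 bp to 2453 and 2512 bp, with log2 differences of -0.997 ± 0.181 and -0.70 ± 0.0802 (limma, adjusted p = 0.0232 and 0.00336). In Cd44, a cell surface receptor for hyaluronan, the difference was -0.35 ± 0.0742 (limma, adjusted p = 0.0449). In each of these the 4 values of the 0 and 24 h lists did not overlap.

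Of the 11 regions that rose, 5 had no peak at 0 h. In all, 6 of the 11 were at least 6000 bp long, among them those at Erg (8592 bp) and Golm1 (6943 bp). The longest H3K27ac peak in any list was 8973 bp. Whether a broader domain would have been listed at 0 h was not tested. In an intron of Erg, an ETS factor of stem cells and megakaryocytes, H3K27ac covered 0 bp in both lists of 0 h, then 8439 and 8397 bp in those of 2 h, and 5027 and 5005 bp in those of 24 h (limma, adjusted p = 1.27e-07). The CTCF peak there scored 52.94 and had an exact consensus match. Beside Golm1, a Golgi membrane protein, coverage was 0 bp in every list up to 12 h and 5322 and 5968 bp at 24 h (adjusted p = 0.000286). Regions present at both times rose at Adipor1, an adiponectin receptor, from 3074 and 3037 bp to 7912 and 7193 bp (log2 difference 1.25 ± 0.0780, adjusted p = 0.000351), and in the Cbfa2t3 neighbourhood from 1586 and 1934 bp to 2832 and 2898 bp (0.65 ± 0.110, adjusted p = 0.0171). The latter is 36899 bp from the TSS and thus another site than the one with H3K27ac lost, which lay in no called region.

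Of 240 H3K4me3 regions at a peak only at 0 h, 3 rose (1.25%, against 0.471% of all 14862 regions) and 2 fell (0.833%, against 1.11%). The median log2 difference was -0.016, against -0.035 over all regions. At 6430550D23Rik, coverage was 0 bp in both lists at 0 h and 5671 and 5908 bp at 24 h (limma, adjusted p = 0.0304). Uhrf1bp1 rose from 3083 and 3403 bp to 4323 and 4670 bp and Pigq from 3138 and 3116 bp to 3860 and 3869 bp (limma, adjusted p = 0.0200 and 0.0435). Near Calr4 and in an intron of Slc16a10 a peak was listed at 0 h only, over 797 and 1251 bp and over 953 and 756 bp (limma, adjusted p = 0.0357 and 0.0413). The number of calls depended on single lists. It was 0 without the first list at 0 h or the second at 24 h, 1 without the second at 0 h, 3 without either list at 6 h or the first at 24 h, and 2 without either at 12 h, and these need not be among the same 5 regions.

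**Figure D5:**
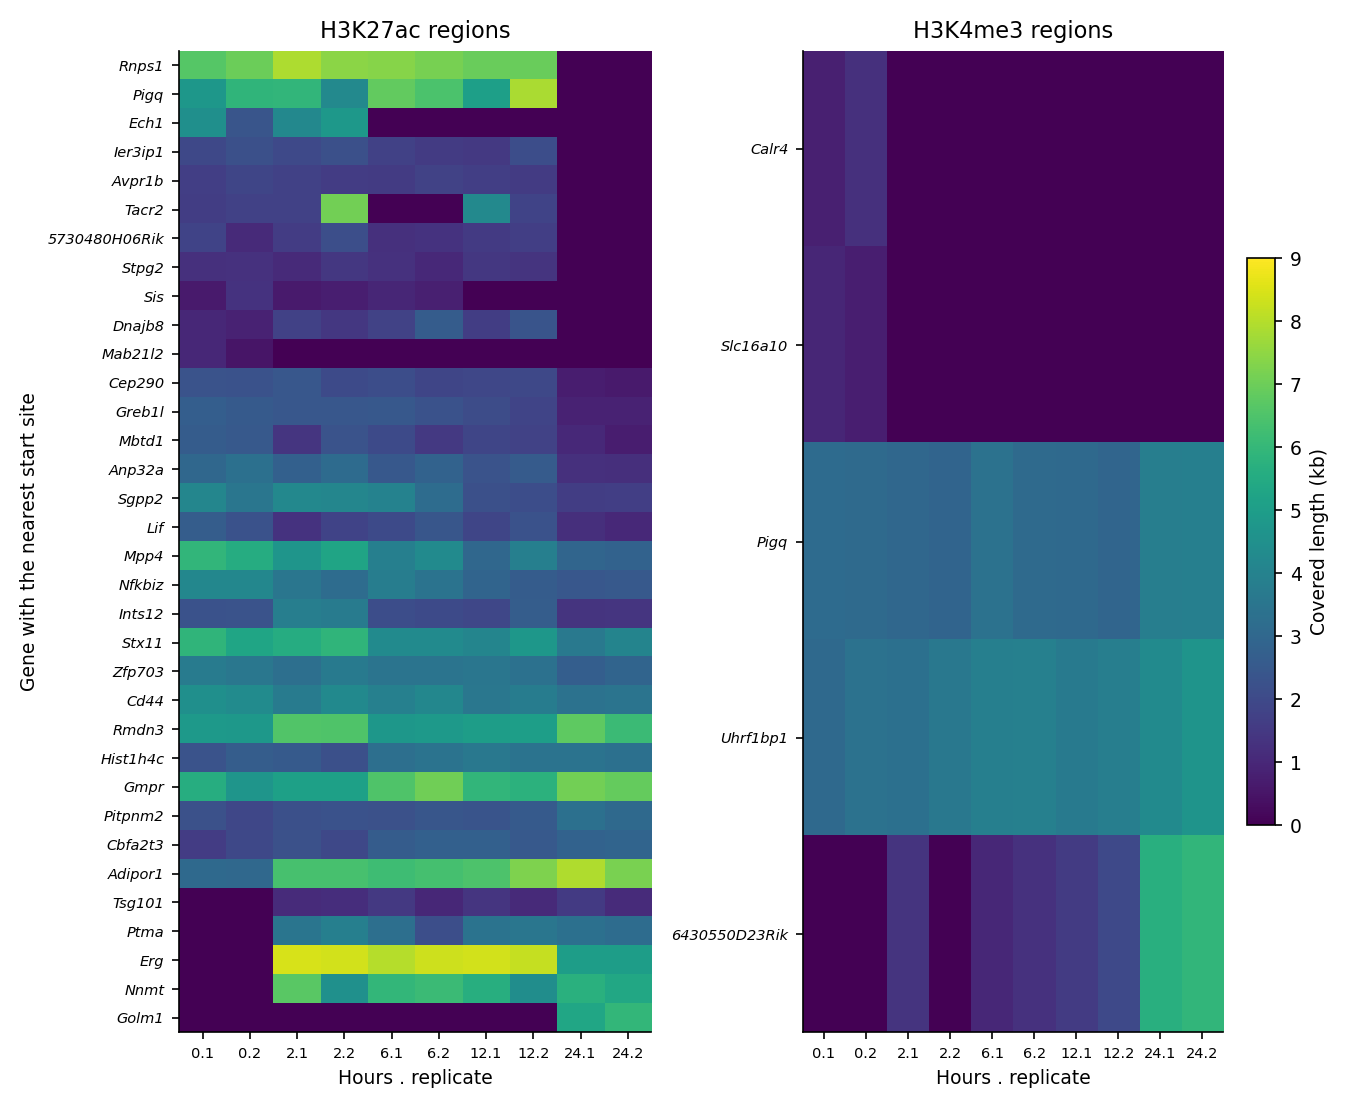
Colour gives the length in kb covered by H3K27ac (left) or H3K4me3 (right) peaks in each region called by limma that overlaps a CTCF peak only at 0 h, with the regions in rows, named by the nearest gene start of the member, and the 10 lists in columns by hours and replicate. Of the 34 H3K27ac rows, the 11 with no peak at 24 h are at the top and the 5 with no peak at 0 h are at the bottom.

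As a check of the cells, H3K4me3 lay within 1 kb of the TSS of 6 of 8 hematopoietic marker genes in both lists at 0 h, and of 0 of 6 hepatocyte, 1 of 6 neuronal and 0 of 6 muscle genes. The H3K27ac lists held 17247 to 18333 peaks and the H3K4me3 lists 12925 to 14452. Reads per list are unknown, since the lists hold peaks only, and with 1 CTCF list per time the presence of a CTCF peak has no replicate check.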

How the data were processed

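ChIP-seq peak lists of G1ER cells were analysed (CTCF, 2 lists; H3K27ac and H3K4me3, 10 lists each). Per the labels and the study's methods, the authors aligned reads to mm10 with Bowtie2, and for the histone marks kept uniquely aligned reads and called peaks with MACS. A protocol field names a human build, but the coordinates fit mm10. The settings for CTCF are not given in the sources used here. The deposited score of a peak, at least 50 in every list, was taken as the caller's, rising as the p-value falls, and was compared only within a list. Read depth is unknown.

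Members, gene lists and tests were chosen with earlier results of these data known. Peaks were joined to GENCODE M21 and RefSeq GRCm38.p6 in Python 3.11.15 (pandas 2.3.3, scipy 1.17.1, pysam 0.24.0). Shares carry 95% Wilson intervals. Trends used exact permutation of the time labels over 113400 assignments, with Benjamini-Hochberg adjustment over 4. Regions were tested by limma 3.58.1 with a mean per time point and Benjamini-Hochberg adjustment over all regions, at 0.05. Sites were named by the nearest TSS: the 20 highest scores, the 10 highest with a TSS inside, up to 10 per mark and direction with a changed mark or a limma call, listed genes within 50 kb, and the 5 nearest either side of the overlap rule. Pigq, Ech1, Ier3ip1, Lif and Nfkbiz among the H3K27ac regions that fell are outside this rule and were chosen after their values were seen. Same-numbered lists did not deviate together, since 0 of 10 pairs of time points had a correlation over 0.1 for either mark. One site that the rule names is not reported here.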

Additional observations from a re-analysis of the deposited data

How the results depend on the processing

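The rule gave 2611 peaks, and 82 with 0 h scores of at least 100 or 701 where both lists were held to that score; the other 5 rules gave counts within 1.5 times. Of 72 alternatives of the 4 trends, 2 passed after adjustment, both for the H3K27ac difference: rho = -0.81 with at least 50% of the CTCF peak covered, and -0.86 without the first 0 h list. Directions turned in 4: to 0.18 (H3K27ac) and 0.098 (H3K27ac difference) for members scoring at least 100, to 0.025 (H3K4me3) with equal numbers of histone peaks, and to -0.62 (H3K4me3 difference) with histone peaks within 1 kb. The causes were not tested. Leaving out 1 list gave rho from -0.53 to -0.0043 for H3K27ac, -0.64 to -0.26 for H3K4me3, -0.86 to -0.61 and 0.25 to 0.58 for the differences. Called H3K27ac regions numbered 34, 27 to 35 with 1 list left out and 11 with histone peaks of at least median score. These 11 were 7 falls and 4 rises among 222 regions at members, where 405 of all 10273 regions were called. Called H3K4me3 regions numbered 5, 0 to 5 with 1 list left out, 2 with that filter and 2 where 5 lists had to hold a peak. With the replicate number as a block, 1 H3K4me3 and 28 H3K27ac regions were called and the H3K27ac trend had rho = -0.26, but the numbers did not pair the lists. The motif share of 56.2% was 61.4% over whole peaks, 25.5% in the central 100 bp, 7.39% with no mismatch, 81.2% with 2 allowed and 59.8% at scores of at least 100. The TSS share of 5.52% was 1.80% inside the peak, 17.1% within 5 kb and 7.43% for all transcripts.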
